A study of Mus musculus with 5 samples.

Results

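NRF2 is the transcription factor that turns on antioxidant and detoxifying genes, and 10 genes of its pathway were followed in mouse liver: Nfe2l2, which encodes NRF2, its inhibitor Keap1, and the target genes Nqo1, Gclc, Gclm, Srxn1, Txnrd1, Gsr, Osgin1 and Cbr3. They were taken by name as genes of this pathway, with earlier results of these data known. In all, 18820 genes could be read from probe sets with 1 gene symbol. Each of the 10 had 1 such probe set; for other genes with several, the one with the highest mean over the arrays was used. The livers came from adult C57Bl/6 mice. In the control group, 3 samples on 1 array each, mice had received rat IgG. In the treated group, 2 samples on 1 array each, they had received M279, an antibody against CSF1R, the receptor that macrophages need for growth and survival. Both groups had intraperitoneal injections of 300 µg, 3 a week for 6 weeks. The comparison asks how blocking this receptor altered gene expression in the liver. The labels do not say how many animals stand behind a sample, so every p-value here reflects the spread among 5 samples only, and that spread may be technical.

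NRF2 is controlled largely through the stability of its protein: KEAP1 presents it to the CUL3 ubiquitin ligase for degradation until oxidants or electrophiles modify KEAP1. NRF2 then accumulates, pairs with small MAF proteins and binds antioxidant response elements near its targets. In hepatocytes it is known for raising glutathione synthesis, thioredoxin recycling and quinone reduction after toxic insults. The amount of Nfe2l2 transcript alone therefore says little about its activity, and the target genes are the usual readout at the RNA level.

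The letters TGACNNNGC, the core of the antioxidant response element, were searched on both strands of RefSeq promoter windows (mouse build GRCm38.p6, 250 bases before to 50 after an annotated start), to show where such letters stand beside the genes whose values follow. Of the members, 8 had windows and 2, Gclc and Gsr, had none in that table. The letters were found in 4 of the 10 windows of these 8 genes, and in 12.4% of 32851 windows of all genes. They are shown for the 3 genes in which they lie before the start, read along the gene's strand, with the matching letters in capitals. A match is a description of the sequence and not a measured binding site.
Gclm: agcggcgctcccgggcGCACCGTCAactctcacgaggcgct
Txnrd1: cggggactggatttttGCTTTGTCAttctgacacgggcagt
Nfe2l2: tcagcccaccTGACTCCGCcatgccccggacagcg
The Gclm window is chr3:122245407-122245447 on the plus strand, and its match, on the opposite strand, begins 134 bases before the annotated start used. That start lies inside the gene's listed span, which begins at 122245487, so the match is nearer to the span's first base. The Txnrd1 window is chr10:82859098-82859138, plus strand, with its match on the opposite strand from 92 bases before 1 of the 3 annotated starts. The Nfe2l2 window is chr2:75704879-75704913 on the minus strand, with its match on the gene's own strand from 240 bases before the start. In Srxn1 the letters began at base 29 of the transcript, on the opposite strand. The windows of Nqo1, Osgin1, Keap1 and Cbr3 did not hold these letters, which says nothing of elements farther away. The only Osgin1 window, from chr8:119436897, lies inside the gene's listed span, which begins at 119425882, so the sequence before that first base was not searched.

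The data were 5 arrays with 35556 probe set intensities each, and median intensities lay between 32.5 and 33.9. Treated replicate 2 correlated less well with the controls (Pearson's r of 0.9825 to 0.9842 over probe sets, log2 scale) than treated replicate 1 did (0.9868 to 0.9892). Differences also went with level: genes above the median level had a median log2 difference, treated minus control, of -0.11, and those below it one of 0.16. Csf1r, the target of the antibody, differed by -0.56 ± 0.12 (SE). Its values were 8.49, 8.68 and 8.61 in controls and 7.93 and 8.12 in treated liver. In limma's two-sided test, its adjusted p was 0.191 over all 35556 probe sets and 0.080 with 1 probe set per gene. Csf1r thus did not pass the test applied to the members below. The smallest adjusted p of any probe set in the fit over all of them was 0.175. Fewer cells of a type and less RNA per cell cannot be told apart in such whole tissue samples. Of the markers of hepatocytes, 9 of 10 were measured, none under an intensity of 2521, and their summed intensity was 54963 to 58192 in controls and 54532 to 57166 in treated liver. For 2 of them both treated arrays lay above all controls, and for 3 below. Over all genes these shares were 25.1% and 19.5%, and over genes above the median level 8.13% and 33.6%. With cyclic loess scaling 0 of these markers lay above all controls and 7 below.

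No antioxidant gene of the 10 passed the test between treated and control liver. All 10 differences lay between -0.34 and 0.08 on the log2 scale, with 3 above and 7 below 0. In limma's two-sided test, adjusted over all 35556 probe sets, 0 of the 10 passed an adjusted p of 0.05, and the adjusted p-values ran from 0.285 to 0.940. This test called 0.0% of all genes. With no adjustment, p was under 0.05 for 0 of 10 members and for 18.3% of all genes. When limma was fitted to 1 probe set per gene alone, 0 of 10 members passed, while 5 genes (0.0266%) were called higher and 9 (0.0478%) lower. The 95% interval of every member included 0, and none reached a 2-fold change in either direction: the lowest bound was -0.76 (Nqo1) and the highest 0.41 (Cbr3). These intervals hold for each gene on its own and cover only the spread between arrays. Both treated arrays lay outside all controls for 1 of the 10, Txnrd1, while the groups did not overlap for 44.6% of all genes. The median difference of the members was -0.06, beside 0.04 for all genes and -0.11 for genes above the median level, where 9 of the 10 members lie. On treated replicate 1 the members' median stood at -0.04 from the control mean, and on treated replicate 2 at -0.14.

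**Figure D1:**
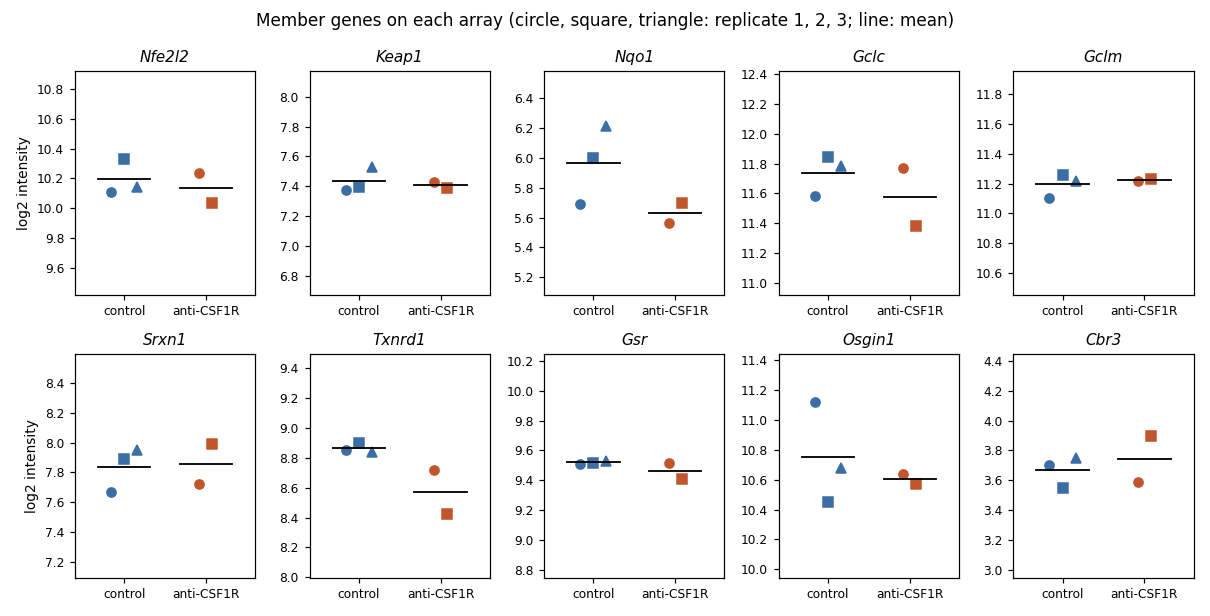
Log2 intensity (vertical axis) of the 10 member genes on the 3 control and 2 anti-CSF1R arrays, 1 panel per gene, each panel spanning 1.5 log2 units around that gene's own mean, with lines at the group means. The groups are apart only for Txnrd1, where the treated arrays at 8.72 and 8.42 lie under the lowest control at 8.84.

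Neither of the regulators had groups that lay apart. Nfe2l2 (probe set 10483809) had log2 intensities of 10.11, 10.33 and 10.15 in controls and 10.24 and 10.03 in treated liver. Treated replicate 1 lay inside the range of the controls and treated replicate 2 just below it. The difference was -0.06 ± 0.13 (SE; 95% interval -0.37 to 0.25), and it turned to 0.04 without treated replicate 2 and to 0.0079 without control replicate 2. Keap1 (probe set 10591482), the adaptor that holds NRF2 down, had 7.37, 7.40 and 7.53 in controls and 7.43 and 7.39 in treated liver. Both treated values lay within the controls' range. Its difference of -0.02 ± 0.11 (interval -0.29 to 0.24) was 0.10 with quantile normalization and 0.10 with cyclic loess.

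Glutathione is made by glutamate-cysteine ligase, whose catalytic subunit is Gclc and whose modifier subunit is Gclm, and its oxidised form is returned to use by glutathione reductase, Gsr. Gclc (probe set 10587266) had 11.58, 11.84 and 11.78 in controls, and 11.77 and 11.38 in treated liver. The treated arrays differed from each other: replicate 1 lay among the controls and replicate 2 below all of them. The difference of -0.16 ± 0.16 (interval -0.55 to 0.22) was -0.35 without treated replicate 1 and 0.03 without treated replicate 2. Gclm (probe set 10495763) had 11.11, 11.26 and 11.22 in controls and 11.22 and 11.23 in treated liver. The 2 treated arrays almost coincided, inside the range of the controls. Its difference of 0.03 ± 0.11 had an interval of -0.23 to 0.29 and was -0.03 with quantile normalization. Gsr (probe set 10571274) had 9.51, 9.52 and 9.53 in controls, and 9.52 and 9.41 in treated liver. The controls spanned 0.02, treated replicate 1 was among them, and only treated replicate 2 lay below. The difference was -0.06 ± 0.10 (interval -0.31 to 0.19) and -0.0019 without treated replicate 2.

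Thioredoxin reductase 1, Txnrd1, recycles cytosolic thioredoxin, and sulfiredoxin, Srxn1, reactivates overoxidised peroxiredoxins. Txnrd1 (probe set 10365260) had 8.85, 8.90 and 8.84 in controls and 8.72 and 8.42 in treated liver. The groups did not overlap, with both treated arrays below the controls, and it was the member with the smallest p. The difference was -0.29 ± 0.13 (interval -0.60 to 0.02), and limma's adjusted p was 0.285 over all probe sets (0.158 to 0.620 over the alternatives tried). Most of it came from treated replicate 2: without that array it was -0.14, and without treated replicate 1 it was -0.44. It was below 0 in all 16 alternatives, but most of these could not have turned it. With both treated arrays below every control, leaving out an array could not, and filters on dim probe sets left it unchanged. Of the settings that could, quantile normalization gave -0.25 and cyclic loess -0.23. Srxn1 (probe set 10477061) had 7.67, 7.89 and 7.95 in controls, and 7.72 and 7.99 in treated liver. The treated arrays lay near either end of the range of the controls. Its difference of 0.02 ± 0.14 (interval -0.33 to 0.37) was 0.16 without treated replicate 1 and -0.11 without treated replicate 2.

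Nqo1 encodes a quinone reductase and is widely used as an indicator of NRF2 activity, while Cbr3 encodes a carbonyl reductase. Nqo1 (probe set 10581538) had 5.69, 6.00 and 6.22 in controls, and 5.57 and 5.70 in treated liver. The groups met at the lowest control, replicate 1, which was just under treated replicate 2, and the controls themselves spanned 0.52. Among the members Nqo1 had the largest difference, -0.34 ± 0.17, with an interval of -0.76 to 0.09 and an adjusted p in limma of 0.331 (0.221 to 0.576 over the alternatives). Quantile normalization gave -0.21, and leaving out control replicate 1 or 3 gave -0.48 or -0.21. Cbr3 (probe set 10436978) had 3.70, 3.55 and 3.75 in controls, and 3.59 and 3.89 in treated liver. These values lie close to the 25th percentile of all genes on the same arrays, which was 3.71 to 3.96, and the table gives no detection call, so whether Cbr3 was above background is not known. The difference of 0.08 ± 0.14 (interval -0.26 to 0.41) was -0.07 with quantile normalization and -0.08 without treated replicate 2.

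Osgin1, an NRF2 target that encodes an oxidative stress-induced growth inhibitor, varied most among the controls. Its log2 intensities (probe set 10575873) were 11.12, 10.45 and 10.68 in controls, and 10.64 and 10.57 in treated liver. Control replicate 1 stood above every other array, and both treated arrays lay between the other two controls. The difference of -0.14 ± 0.21 (interval -0.64 to 0.36) was 0.04 without that control array. For 8 of the 10 members the difference between groups was smaller than the span of the 3 controls, Txnrd1 and Gsr being the exceptions.

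**Figure D2:**
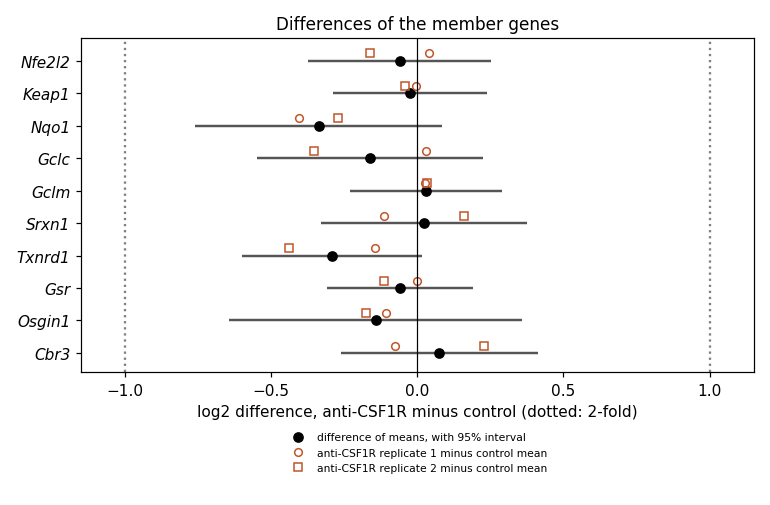
Log2 difference, anti-CSF1R minus control, for the 10 member genes (filled circles) with 95% intervals from limma's moderated fit, and each treated array minus the control mean (open symbols). Every interval crosses 0 and none reaches the dotted lines at 2-fold. For 4 genes (Nfe2l2, Gclc, Srxn1 and Cbr3) the treated arrays lie on opposite sides of the control mean.

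The profile of Nqo1 over the 5 arrays, centred on its mean, was compared with those of all other genes by Euclidean distance, as a description only. The nearest were 9130409I23Rik (distance 0.029), Tmem51 (0.078) and Prag1 (0.093). Their differences between treated and control liver were -0.32, -0.40 and -0.28. With 18820 genes and only 5 arrays, close profiles can be found for almost any gene.

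Other genes of the pathway were read from lists ordered by role, 107 genes in all, of which 96 were measured. In limma's test 0 of the 96 passed over all probe sets, and 0 passed with 1 probe set per gene alone. Before adjustment, p was under 0.05 for 3 higher genes (background 9.91%) and 8 lower ones (background 8.4%). The groups did not overlap for 19 higher ones (background 25.1%) and 13 lower ones (background 19.5%). Their median difference was 0.03. Most of them, 84 of 96, lie above the median level, where the groups were apart and higher for 8.13% of genes and apart and lower for 33.6%. Of the 9410 genes at that level, limma's p before adjustment was under 0.05 for 166 higher and 1355 lower ones. The shares of genes apart are the background to the count of genes apart in each list below. Beside each median, and each gene chosen from a list by its p, the lowest and highest value over the alternatives tried are given as a range. Without treated replicate 2, 15 of the 27 genes so chosen moved by over 1.5 times, and without treated replicate 1, 8 did.

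Among 15 regulators and partners of NRF2, 2 lay apart above the controls and 1 below, with a median of -0.11 (range -0.23 to -0.0080, the ends without treated replicate 1 and with quantile normalization). Gsk3b, a kinase that marks NRF2 for degradation independently of KEAP1, was at -0.31 ± 0.11 (range -0.42 to -0.20). The small MAF gene Maff was at 0.20 ± 0.13 (0.062 to 0.34) and Park7, which encodes the redox-sensitive protein DJ-1, at 0.17 ± 0.11 (0.082 to 0.25), both lowest without treated replicate 2. Cul3, the ligase scaffold, gave -0.14 ± 0.15, Bach1, a repressor that competes for the same elements, -0.09 ± 0.11, and Sqstm1, a target that also binds KEAP1, 0.05 ± 0.12. For Cul3 and Sqstm1 the treated arrays lay on opposite sides of the control mean.

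In the glutathione group, 12 of 13 genes were measured, 2 of them apart above and 2 apart below the controls. The median was -0.05 and changed sign with the treated array kept: it was 0.040 without treated replicate 2, the highest of its range, and -0.12, the lowest, without treated replicate 1. The glutathione peroxidase gene Gpx2 was the lowest of all 96, with 3.80, 3.89 and 3.91 in controls and 3.06 and 3.24 in treated liver. The groups were well separated. The controls lay just above the 25th percentile of all genes on their arrays, which was 3.71 to 3.76. The treated values lay below that percentile, which was 3.96 and 3.90 on treated replicates 1 and 2. Gpx2 was too dim for either filter on dim probe sets, and no detection call tells whether it was above background. Its difference was -0.72 ± 0.11 (limma, adjusted p = 0.178 over all probe sets), with a range of -0.88 to -0.30. The upper end came from adding 16 to each intensity before log2, which shrinks differences of dim probe sets. Gpx4, which protects membranes from lipid peroxides, was at 0.41 ± 0.20, and its second probe set gave 0.40. Its range was 0.11 to 0.71, with the low end without treated replicate 2. Gpx1, the cytosolic peroxidase, was at 0.24 ± 0.12 (range 0.12 to 0.36).

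Of 15 thioredoxin and peroxiredoxin genes, 13 were measured, with 3 apart above, 1 apart below and a median of 0.11 (range 0.038 to 0.14, lowest without treated replicate 2). Msrb1, a methionine sulfoxide reductase, was at 0.24 ± 0.13 (0.086 to 0.39) and the mitochondrial thioredoxin Txn2 at 0.23 ± 0.14 (0.038 to 0.43), both lowest without treated replicate 2. Txnrd3, a paralogue of Txnrd1, was at -0.21 ± 0.12 (-0.27 to -0.052, the latter with quantile normalization). The mitochondrial paralogue Txnrd2 gave -0.18 ± 0.13, with groups that overlapped. Txn1, the substrate of Txnrd1, was at 0.03 ± 0.11 and the mitochondrial peroxiredoxin Prdx3 at 0.11 ± 0.12.

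Glutathione transferases, which attach glutathione to electrophiles and of which several are NRF2 targets, had 12 of 14 genes measured. The 4 that lay apart from the controls were all higher, though with quantile normalization or cyclic loess 2 lay apart below. Of all genes 25.1% lay apart above, and of those above the median level 8.13%. The list's median was 0.12 (range 0.042 to 0.15, lowest with cyclic loess). Gsta4 was at 0.27 ± 0.13 (0.18 to 0.35), Gstm6 at 0.23 ± 0.13 (0.13 to 0.28, lowest without control replicate 1) and the microsomal Mgst1 at 0.12 ± 0.10 (-0.0054 with cyclic loess to 0.17). Gstm1, an abundant liver transferase, was at -0.03 ± 0.10. Members of this family are close in sequence, so probe sets may share signal between them.

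Of enzymes acting on quinones, carbonyls and epoxides, 13 of 16 were measured and 3 lay apart, below the controls, a share between the 19.5% of all genes and the 33.6% of genes above the median level. They were the prostaglandin reductase Ptgr1 (-0.46 ± 0.12, range -0.58 to -0.33), the aldehyde dehydrogenase Aldh1a7 (-0.47 ± 0.14, range -0.64 to -0.30) and the carboxylesterase Ces1g (-0.42 ± 0.14, range -0.56 to -0.29). Their adjusted p-values in limma were 0.193, 0.213 and 0.223. The list's median was -0.03, with a range of -0.098 without control replicate 1 to 0.0033 with arrays centred on their medians. Close relatives of the members gave 0.03 ± 0.17 for Nqo2 and 0.04 ± 0.15 for Cbr1, and the epoxide hydrolase Ephx1 was at 0.0029 ± 0.14, each with treated arrays on opposite sides of the control mean.

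In the heme and iron group, 7 of 8 genes were measured, 2 of them apart and both higher, with a median of 0.14 (range 0.045 to 0.18, lowest without treated replicate 2). The share apart above was 25.1% of all genes and 8.13% of those above the median level. Hmox1, heme oxygenase 1, is induced by NRF2 but is also a gene of macrophages that take up red cells. It had 7.51, 7.76 and 7.53 in controls and 7.85 and 7.90 in treated liver. Both treated arrays lay above all controls, and the difference was 0.28 ± 0.12 (limma, adjusted p = 0.291), with a range of 0.23 to 0.39. The ferritin heavy chain gene Fth1 was at 0.14 ± 0.11 (0.012 with cyclic loess to 0.27 as the mean over both probe sets), and its second, dimmer probe set gave 0.40.

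Enzymes that supply NADPH, on which Gsr, Txnrd1 and Nqo1 draw, had 7 of 8 genes measured, 1 apart above and 2 below, with a median of -0.17 (range -0.18 to -0.022, highest without treated replicate 2). Pgd, of the oxidative pentose phosphate pathway, had 9.37, 9.43 and 9.41 in controls and 9.07 and 8.55 in treated liver. As for Txnrd1, the controls were close together and treated replicate 2 was the lower of the treated arrays. The difference was -0.59 ± 0.17 (limma, adjusted p = 0.207), with a range of -0.85 without treated replicate 1 to -0.33 without treated replicate 2. Transketolase, Tkt, was at -0.17 ± 0.10 (-0.21 to -0.099), the NAD kinase Nadk at 0.11 ± 0.10 (0.074 to 0.15), and malic enzyme, Me1, at -0.23 ± 0.26 with groups that overlapped.

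All 6 efflux pump genes were measured, of which 2 lay apart below the controls, and their median was -0.14 (range -0.24 to -0.086, the ends without control replicate 1 and without treated replicate 2). The share apart below was 19.5% of all genes and 33.6% of those above the median level. The 2 pump genes were Abcc1 (-0.45 ± 0.19, range -0.72 to -0.19) and Abcg2 (-0.33 ± 0.15, range -0.51 to -0.15), each moved to both ends by leaving out a treated array. Abcc2, the canalicular pump that carries glutathione conjugates into bile, was at 0.08 ± 0.12, again with treated arrays on opposite sides. Catalase and the superoxide dismutases, which are less dependent on NRF2, had 4 of 4 genes measured, 1 apart above and 1 below. Their median was 0.020 (range -0.051 with cyclic loess to 0.066 without treated replicate 1). Cat was at -0.04 ± 0.10, Sod1 at 0.12 ± 0.10 (-0.016 with cyclic loess to 0.18), with 0.25 on a second probe set, and Sod2 at -0.04 ± 0.10 (-0.10 with quantile normalization to -0.00023 with arrays centred on their medians).

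**Figure D3:**
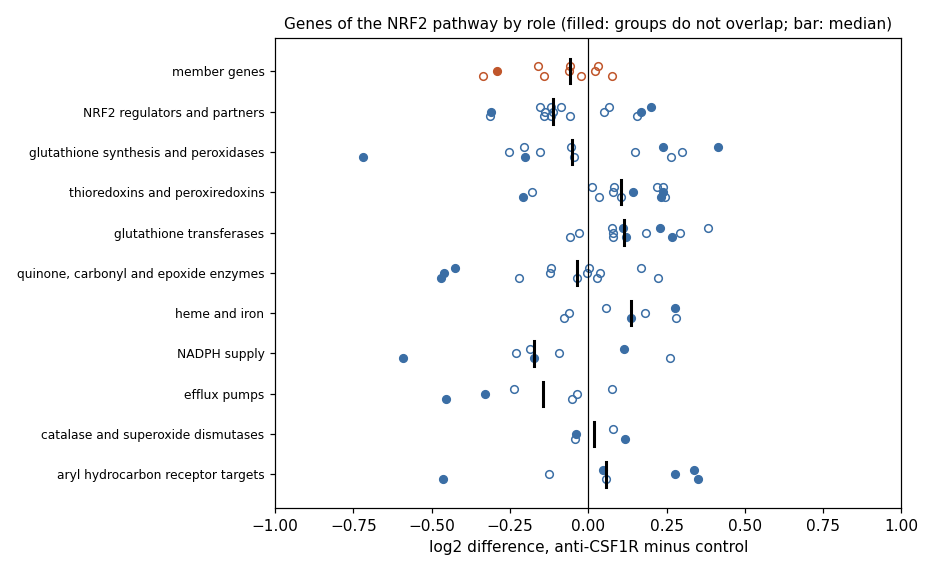
Log2 difference, anti-CSF1R minus control, of each measured gene (points) by role, with the list's median as a bar; filled points are genes whose treated and control arrays do not overlap. The members (top row) spread from -0.34 to 0.08, and the widest departures elsewhere are Gpx2 at -0.72 and Pgd at -0.59.

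Nqo1 is also a target of the aryl hydrocarbon receptor, so genes of that receptor were read beside it. Of 8 genes 7 were measured, with 4 apart above, 1 apart below and a median of 0.06 (range 0.046 to 0.18, highest without treated replicate 2). Over all genes 25.1% lay apart above and 19.5% below, and of the 9410 genes below the median level 3965 lay apart above. Cyp1a2, the abundant hepatic member, was at 0.06 ± 0.12 with groups that overlapped. The higher ones included Cyp1a1 (0.34 ± 0.12, range 0.17 to 0.44) and Aldh3a1 (0.28 ± 0.11, range 0.11 to 0.31), both dim. Cyp1a1 had log2 means of 3.85 in controls and 4.19 in treated liver, Aldh3a1 3.50 and 3.77, and 7473 of the 9410 genes below the median level were higher. The receptor's partner Arnt was at -0.46 ± 0.13 (limma, adjusted p = 0.207), with a range of -0.63 without treated replicate 1 to -0.30 without treated replicate 2.

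Markers of other cells were set beside these values. All 16 Kupffer cell and macrophage markers were measured, with none under an intensity of 25.5. Their summed intensity was 6140 to 7054 in controls, 4983 and 6633 on treated replicates 1 and 2, with 5 genes apart below and 1, Marco, apart above. Over all genes, 19.5% lay apart below and 25.1% above. Over genes above the median level these shares were 33.6% and 8.13%. All 16 markers passed the filter at the median of all probe sets. That median is lower than the median over genes, so a marker that passed need not lie above the latter. The highest difference among the markers, 1.336, is also the highest among genes below the median level, of which 3965 of 9410 lay apart above. Periportal hepatocyte markers, 6 of 8 measured with none under 68.4, summed to 14231 to 15608 in controls and to 13716 and 11940 on treated replicates 1 and 2, with 4 of them apart below. Pericentral markers, 9 of 9 measured, summed to 22816 to 23572 in controls and 22648 to 25004 in treated liver. Neutrophil markers, 11 of 12 measured, summed to 189 to 216 in controls and 228 to 242 in treated liver, at intensities as low as 6.67. Only 1 of them passed the filter at the median of all probe sets, and 7473 of the 9410 genes below the median level were higher. As deposited, 7 of these markers lay apart above and 0 below, and with cyclic loess 2 above and 1 below. Sinusoidal endothelial markers, 8 of 8 measured with none under 155, summed to 4178.5 to 4350.5 in controls and 4489 to 4653 in treated liver, so this sum did not overlap between groups either, with 2 genes apart above and 1 below. The part of cell composition, of the shift with level and of treated replicate 2 in the members' values was not tested.

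**Figure D4:**
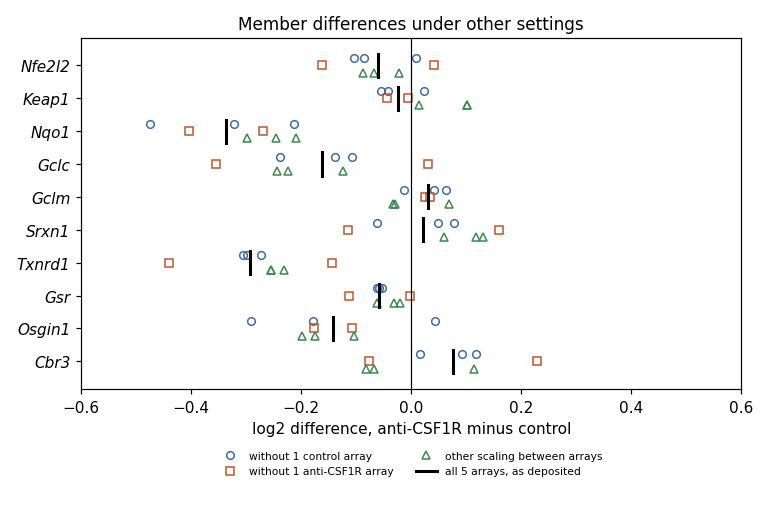
Log2 difference, anti-CSF1R minus control, of the 10 member genes with all 5 arrays as deposited (bars), without 1 array (circles and squares) and under 3 other scalings between arrays (triangles). Nqo1, Txnrd1 and Gsr stay below 0 throughout, Gsr reaching -0.0019, while each of the other 7 crosses 0 in at least 1 setting.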

How the data were processed

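The intensity values were deposited by the authors as 1 linear-scale table. The submitters' processing notes name Affymetrix Expression Console 1.1, with settings for background, summarisation and normalization not given in the sources used here. RNA was extracted with Trizol and amplified as cDNA, per the labels' protocols, which can alter ratios between dim and bright transcripts. Arrays' medians were close, so values had been brought to one scale in some way. Values were taken to log2 as they stood, unfiltered and with nothing added.

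Of 35556 probe sets, 21218 had 1 symbol in the platform's annotation, 1881 several, and 12457 were unlisted. Symbols were updated by gene ID through RefSeq (GRCm38.p6). Groups were compared in R 4.3.3 by limma 3.58.1 (functions lmFit, eBayes; Benjamini-Hochberg over all probe sets, 3 residual and 3.03 prior degrees of freedom). The steps were tested on simulated data. An exact permutation of 2 against 3 arrays cannot give p under 0.1, and the number of arrays limits the precision.

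The members and lists were chosen with earlier results of these data known. Named genes are all members and, per list, up to 3 with the smallest p among those whose groups did not overlap. Other list genes named, chosen after their values were seen, are relatives or partners of members. Genes read from no single-symbol probe set are not analysed here. Alternatives were other scalings, filters on dim probe sets, an added 16 before log2, other variance models, array weights, 1 probe set or all probe sets per gene, the replicate number as a block, and leaving out each array. Figures used matplotlib 3.10.9 in Python 3.11.15.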

Additional observations from a re-analysis of the deposited data

How the results depend on the processing

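There were 16 alternatives, or 15 for Cbr3, which was too dim for the filter at the median. In those that kept both treated arrays, no member passed an adjusted p of 0.05 in limma. Apart from the fits on 1 value per gene, these called 0 probe sets of the whole table. The members' failure to pass therefore does not set them apart from other genes. Nqo1, Txnrd1 and Gsr kept their direction in all 16 alternatives. Filters on dim probe sets, other variance models and the choice of probe sets per gene could not change a member's difference. With quantile normalization and cyclic loess, Keap1 turned to 0.10 and 0.10, Gclm to -0.032 and -0.029, and Cbr3 to -0.067 and -0.083. Centring on array medians turned Keap1 to 0.013. Leaving out 1 array moved Nfe2l2 between -0.162 and 0.041, Keap1 between -0.054 and 0.023, Gclc between -0.354 and 0.031, Gclm between -0.014 and 0.062, Srxn1 between -0.115 and 0.159, Osgin1 between -0.292 and 0.043 and Cbr3 between -0.077 and 0.229. The cause was not tested.

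The median of the members lay between -0.138 and -0.041 without 1 array. Members with groups apart numbered 2 with cyclic loess (Keap1 above, Txnrd1 below), 2 with arrays centred on their medians (Gclm above, Txnrd1 below), and 1 to 6 without 1 array, where fewer arrays separate more easily: without treated replicate 1 they were 6 and without control replicate 1 they were 4. Of all 35556 probe sets, 17509 to 24524 lay apart without 1 array: 24524 without treated replicate 1 and 19672 without control replicate 1. With cyclic loess 11640 of them lay apart, and with arrays centred on their medians 15220. Where fewer were tested, 7020 lay apart without those under the median level and 8401 with 1 per gene. With 1 probe set per gene, 14 genes were called.

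The labels number the arrays 1 and 2 in both groups. Deviations from the group means correlated at 0.027 and 0.032 for the same number. The deviations of the 2 treated arrays mirror each other, so these values cannot tell whether arrays of the same number share a batch. The replicate block kept only replicates 1 and 2 of each group, and Keap1 was at 0.023, the same as without control replicate 3. It called 0 probe sets, as the main fit did, so it could take no call away. Intensity near or below the lower quartile limits what can be said of Cbr3 and Gpx2.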
